A study of Mus musculus with 16 samples.

Results

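The replication-dependent histone genes are the protein-coding genes whose symbols begin with Hist1h, Hist2h, Hist3h or Hist4 in the GENCODE M21 annotation of the mouse genome, build mm10. There were 67 such genes among the 20807 protein-coding genes of chromosomes 1 to 19. They code for the linker histone H1 (6 genes) and for the core histones H2A (18), H2B (18), H3 (12) and H4 (13). The Hist1 cluster on chromosome 13 holds 54 of them and the Hist2 cluster on chromosome 3 holds 10, while 2 Hist3 genes lie on chromosome 11 and Hist4h4 lies alone on chromosome 6. Every gene was chosen by its symbol, and no measured value entered that rule, although earlier results of these data were known when it was set.

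Open chromatin was profiled by ATAC-seq, in which a transposase cuts accessible DNA and inserts sequencing adapters, in thymocytes of 4 wild-type C57BL/6J mice aged 9 weeks. Each mouse gave sorted cells of 4 stages, 16 libraries in all. Double-negative cells (DN) were sorted as Lin- CD4- CD8- CD3-, double-positive cells (DP) as Lin- CD4+ CD8+, and single-positive cells as Lin- CD4+ CD8- CD3+ (SP4) or Lin- CD4- CD8+ CD3+ (SP8). Reads of the 4 mice were pooled before peak calling, so each stage has a single list of peaks, mice cannot be compared with one another, and no stage comparison has a test. The DN, DP, SP4 and SP8 lists held 150139, 107110, 115074 and 104411 peaks, and the read depth behind them was not used here. Marker genes followed the labels in part. Ptcra, the pre-T cell receptor alpha chain, ranked above 94.5%, 92.3%, 84.4% and 15.7% of the peaks of the DN, DP, SP4 and SP8 lists, and Rag1, a subunit of the recombinase, above 84.8%, 88.9%, 64.4% and 56.0%, whereas Il2ra, a surface marker of DN cells, lay at 96.4% to 99.3% in all 4 lists. Of the SP markers, Ccr7, a chemokine receptor of mature thymocytes, had 98.3%, 97.2%, 93.1% and 90.8%, and Zbtb7b, the CD4 lineage factor, had 86.8%, 78.4%, 58.1% and 73.9%, both highest at DN and so against the labels. The SP markers S1pr1 (62.7%, 72.2%, 64.7% and 78.6%) and Runx3 (93.5%, 94.8%, 96.9% and 94.2%) were instead lowest at DN. Of genes of other blood cells, Hba-a1 (erythroid) had no peak at any stage, Cd79a (B cell) and Itgam (myeloid) had peaks at all 4, and Lyz2 (myeloid) had a peak at DN alone, at percentile 88.4, and its part in the DN values below was not tested. The lineage (Lin) antibodies of the sort included those against the myeloid markers Mac1, Gr1 and CD11c.

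Replication-dependent histone genes are transcribed mainly in S phase, when new DNA has to be packed into nucleosomes. The genes are short, most lack introns, and many H2A and H2B genes lie head to head and share a promoter. Their mRNAs end in a conserved stem-loop bound by SLBP instead of a poly(A) tail, and their transcription is driven by the coactivator NPAT at histone locus bodies. In the thymus, DN and early DP cells proliferate strongly, while most small DP cells and single-positive cells are out of cycle.

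The promoters of 6 members, 1 of them testis-type (Hist1h2ba), are printed here because they show how the classes differ in the elements upstream of the start. The sequences are the 150 bases upstream of the RefSeq start, read on the coding strand, from the RefSeq annotation of GRCm38.p6 (the same build as mm10). Capitals mark matches, on either strand, to the CCAAT box (CCAAT), the TATA box (TATAAA), the H4 element core (GGTCCG) and the H1 box (AAACACA). Hist1h1c, Hist1h2ak and Hist1h2bh had the highest-ranked DN peak of their class for which a promoter was given, and Hist1h1a and Hist1h4d were chosen after their values were seen, as the H1 and the H4 gene with a large difference between stages.
Hist1h1c (chr13:23738657-23738806, plus strand): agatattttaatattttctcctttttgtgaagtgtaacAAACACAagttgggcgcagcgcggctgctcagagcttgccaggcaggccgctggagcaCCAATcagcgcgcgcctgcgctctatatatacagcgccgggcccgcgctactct
Hist1h1a (chr13:23763518-23763667, plus strand): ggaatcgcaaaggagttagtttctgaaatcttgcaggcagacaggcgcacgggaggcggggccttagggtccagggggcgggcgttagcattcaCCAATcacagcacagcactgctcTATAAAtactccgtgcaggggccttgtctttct
Hist1h2ak (chr13:21753913-21754062, minus strand): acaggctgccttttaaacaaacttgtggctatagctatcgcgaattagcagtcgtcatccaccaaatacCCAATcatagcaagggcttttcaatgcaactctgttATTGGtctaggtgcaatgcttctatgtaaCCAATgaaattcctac
Hist1h2bh (chr13:23543445-23543594, minus strand): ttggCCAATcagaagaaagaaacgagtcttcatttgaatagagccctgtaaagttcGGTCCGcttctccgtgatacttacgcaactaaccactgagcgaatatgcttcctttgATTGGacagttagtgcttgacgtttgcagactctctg
Hist1h4d (chr13:23581418-23581567, plus strand): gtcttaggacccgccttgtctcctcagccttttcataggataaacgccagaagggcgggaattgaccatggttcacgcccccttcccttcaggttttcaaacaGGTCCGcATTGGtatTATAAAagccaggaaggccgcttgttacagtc
Hist1h2ba (chr13:23934157-23934306, minus strand): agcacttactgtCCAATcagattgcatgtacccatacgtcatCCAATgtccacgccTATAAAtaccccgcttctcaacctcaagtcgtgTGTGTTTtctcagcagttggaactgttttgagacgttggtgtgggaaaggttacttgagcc

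Of the 67 genes, 62 had a RefSeq promoter. The entries not found were Hist1h3f, Hist1h2bc, Hist1h3a, Hist2h2be and Hist2h4. Within 250 bases upstream of the start, CCAAT was found in 51 of the 62 histone promoters (82.3%), against 33.8% of all 32851 RefSeq promoters. It was present in all H1, H2A and H2B promoters given (6, 18 and 16), in 8 of 10 of the H3 genes and in 3 of 12 of the H4 genes. The octamer ATTTGCAT, a site of POU factors, was found in 7 of 18 H2A and 7 of 16 H2B promoters and in no H1, H3 or H4 promoter, against 1.60% of all promoters. GGTCCG was found in 9 of 12 H4 promoters and in 1 H2B and 1 H3 promoter (against 6.72% of all promoters). AAACACA was found in 5 of 6 H1 promoters (83.3%, against 6.25%) and in 2 H2A and 2 H2B promoters. TATAAA was found in 29 of the 62 histone promoters (46.8%, against 12.4%), in every class. The shares of these elements thus differed between the classes, but no element marked a single class without exception. The testis-type Hist1h2ba promoter carried matches to the CCAAT, TATA and H1 boxes, although no peak was called there at any stage.

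The stem-loop at the 3′ end is what sets these genes apart from other coding genes by sequence. Its core, CTTTTNAG on the coding strand within 150 bases after the stop codon, was found at 64 of the 67 genes (95.5%), against 524 of 20653 protein-coding genes with an annotated stop codon (2.54%). The genes without a match in this window were Hist1h3g, Hist1h4a and Hist2h2be. With the flanking stem, 41 genes carried the same 16 letters, shown here for Hist1h1c and Hist1h2bh. The next most frequent forms were found at 9 genes, among them Hist1h2ba, with a variant loop, and at 8, among them Hist1h4c, with a variant stem. A form with the same variant stem but a further loop, TTTT, was found at 2 genes, among them Hist2h4. The remaining 4 genes had other forms. Capitals mark the stem and loop.
Hist1h1c stem-loop (chr13.0:23739512.0-23739527.0 for the capitals, plus strand): aaaaGGCTCTTTTCAGAGCCacca
Hist1h2bh stem-loop (chr13.0:23542928.0-23542943.0 for the capitals, minus strand): caaaGGCTCTTTTCAGAGCCactc
Hist1h2ba stem-loop (chr13.0:23933730.0-23933745.0 for the capitals, minus strand): caaaGGCTCTTTTAAGAGCCaccc
Hist1h4c stem-loop (chr13.0:23698089.0-23698104.0 for the capitals, minus strand): aaaaGGCCCTTTTCAGGGCCaccc
Hist2h4 stem-loop (chr3.0:96262939.0-96262954.0 for the capitals, minus strand): taacGGCCCTTTTTAGGGCCaacc

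Most histone genes were open at every stage. A peak counted for a gene when it overlapped, by at least 1 bp, the window from 1 kb upstream of the gene start to the gene end. At DN, 60 of the 67 genes had a peak (89.6%, 95% Wilson interval 80.0% to 94.8%), against 79.1% of all protein-coding genes. At DP 59 had one (88.1%, 78.2% to 93.8%; all genes 74.0%), at SP4 58 (86.6%, 76.4% to 92.8%; all genes 73.6%) and at SP8 59 (88.1%, 78.2% to 93.8%; all genes 72.3%). The intervals cover counting error only, and neighbouring genes can share a peak, so the genes are not independent. Since histone genes are short, the same count was made in a window of equal length for all genes, from 1000 bp upstream to 200 bp downstream of the start. There the distance to the other genes was larger: 88.1%, 86.6%, 83.6% and 85.1% of the histone genes had a peak at DN, DP, SP4 and SP8, against 63.7%, 58.8%, 57.3% and 57.0% of all genes.

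**Figure D1:**
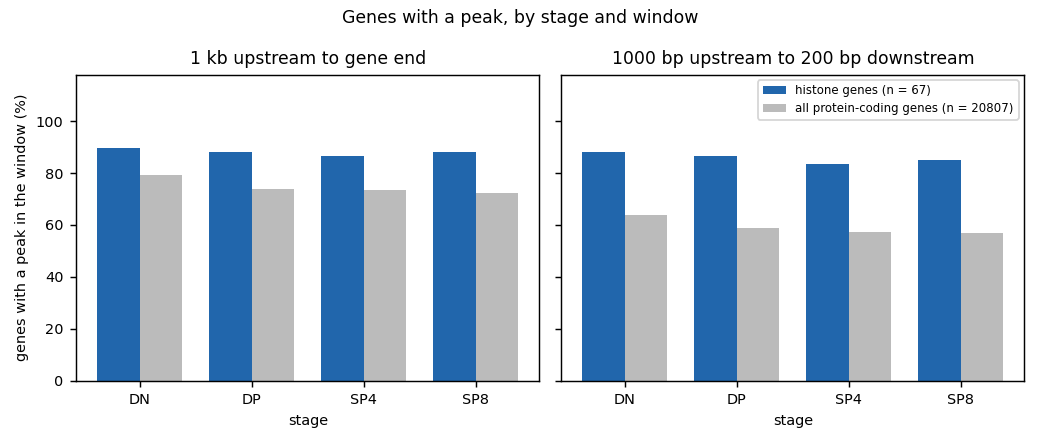
Share of genes with a peak (%) at each stage for the 67 histone genes (blue) and for all 20807 protein-coding genes (grey), in the window from 1 kb upstream to the gene end (left) and in a window of 1000 bp upstream to 200 bp downstream of the start (right). The histone bars lie above the grey bars at all 4 stages, and by more in the window of equal length.

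The same genes were open throughout. A peak was present at all 4 stages at 58 of the 67 histone genes (86.6%, against 70.2% of all genes) and at none at 7 (10.4%, against 19.7%). Only Hist1h3d and Hist2h3c1, both H3 genes, differed between stages. Hist1h3d had a peak at DN and DP, with widths of 148 and 111 bp, and Hist2h3c1 at DN and SP8, with widths of 139 and 129 bp. The Hist1h3d peaks ranked above 8.17% of the DN list and 2.25% of the DP list and the Hist2h3c1 peaks above 20.2% of the DN list and 26.6% of the SP8 list, so all of them lay in the lower part of their lists. Of the 75-bp words of the Hist2h3c1 window, 47.0% occurred once in mm10 (8.42% in the kb upstream), against 86.7% at Hist1h3d. The part of read mapping in these calls was not tested.

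The 7 genes with no peak fell into groups of 4 and 3. Hist1h2bq with Hist1h2ao and Hist1h2ap with Hist1h2br are H2A and H2B pairs in a duplicated stretch of the Hist1 cluster. None of the 75-bp words of their windows (0%), the length of a read, occurred only once in mm10. The authors kept uniquely mapped reads, and the part of this in the missing peaks was not tested. The remaining 3 are testis-type genes, namely the linker histone gene Hist1h1t and the divergent pair Hist1h2ba (H2B) and Hist1h2aa (H2A), which replace other histones during spermatogenesis. Their windows were mappable, with 100%, 92.1% and 92.0% unique words. The nearest peak to the Hist1h1t window lay 740, 757, 1192 and 756 bp away at DN, DP, SP4 and SP8. The nearest peak to the Hist1h2ba window lay 7702, 15826, 7758 and 7785 bp away. The 1.08 kb block of that pair held 0 peaks at any stage, whereas the 233 kb block just upstream, with 29 histone genes from Hist1h4h to Hist1h1a, held 51, 46, 48 and 45 peaks, of which 41, 37, 39 and 37 lay in histone windows.

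The height of a gene's peak was read from the highest peak in its window by fold enrichment, the pileup over the local background given by MACS2. It is given as a percentile, the share of the peaks of the same stage list with a lower fold enrichment. Over the histone genes with a peak, the median percentile was 78.2, 79.3, 87.2 and 80.4 at DN, DP, SP4 and SP8. The values spanned 8.17 to 95.2, 2.25 to 95.1, 27.3 to 98.1 and 14.6 to 97.4 in the same order. Medians over all genes with a peak were 87.1, 86.2, 86.2 and 86.0, and in the window of equal length 78.9, 81.7, 80.3 and 80.9, where those of the histone genes were 76.0, 78.7, 84.2 and 76.1. Histone peaks were therefore common but not among the highest, and in the window of equal length they lay above the all-gene median at SP4 alone. Ranked by q-value, the significance of the peak after correction, the histone medians were higher, at 91.1, 92.1, 93.9 and 89.4, against 88.0, 87.1, 87.4 and 87.3 over all genes.

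**Figure D2:**
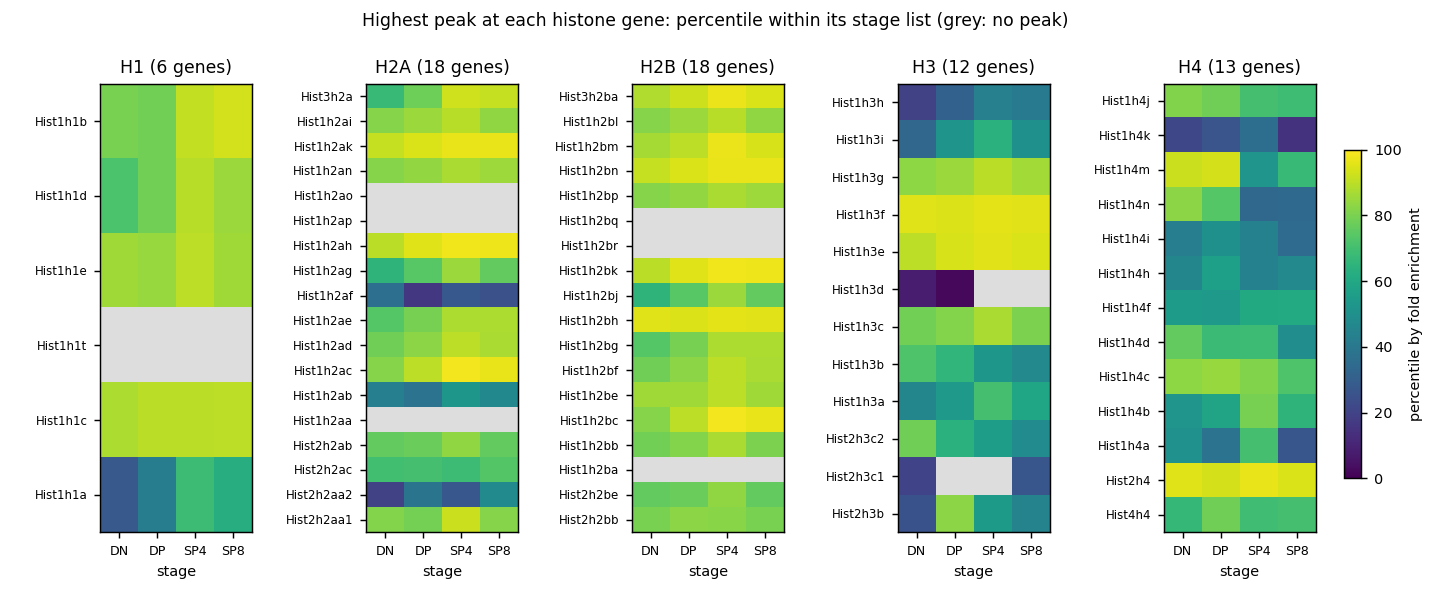
Percentile of the highest peak by fold enrichment (colour, 0 to 100) at each of the 67 histone genes (rows, in chromosome order within a class) and 4 stages (columns), with grey where no peak was called. H2A and H2B genes form mostly bright rows, brightest at SP4, and H3 and H4 genes span the whole scale, from Hist1h3d (2.25 at DP) to Hist2h4 (96.7 at SP4).

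The linker histone genes had a peak at 5 of 6 members at every stage, with median percentiles of 80.0, 78.7, 89.8 and 85.8 in the order DN, DP, SP4, SP8. Hist1h1c, a linker histone also expressed outside S phase, was the highest of its class at DN, with percentiles of 87.8, 89.5, 89.8 and 90.1 at DN, DP, SP4 and SP8. Hist1h1a was the lowest of its class at DN, at 28.0, 42.5, 68.4 and 62.4. Its summit stayed at the promoter printed above, at −6 to −21 bp from the start over the 4 stages, and the width of its peak was 619, 706, 703 and 681 bp. Its window was fully unique (100%). At Hist1h1b, Hist1h1c and Hist1h1e the highest peak lay downstream of the start, with summits 867 to 1321 bp from it. At Hist1h1d the summit lay 1866, 1744, 1743 and 1746 bp from the GENCODE start of a long gene model, but at 96, −26, −27 and −24 bp from the RefSeq start, which is the promoter of the coding bases. At Hist1h1b the summit lay past the annotated gene end at all 4 stages, as the annotated gene ends 743 bp after its start.

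H2B genes held the narrowest range at DN. With a peak at 15 of 18 members of either class, H2A medians were 76.1, 79.0, 87.8 and 83.5 and H2B medians 81.9, 84.8, 89.9 and 87.2 at DN, DP, SP4 and SP8. The H2B values lay within 65.2 to 95.2 at DN and 82.1 to 98.1 at SP4, and the H2A values within 19.6 to 91.4 and 27.3 to 98.1. Their summits lay upstream of the start, at a median of −84, −82, −86 and −86 bp for H2A and −143, −133, −134 and −144 bp for H2B, within the 250 bases searched for CCAAT and the octamer. There were 12 head-to-head pairs of an H2A and an H2B gene, with starts 176 to 306 bp apart, and these held 24 of the 36 H2A and H2B genes. In 8 pairs both genes had the same highest peak at all 4 stages, in 3 pairs neither had one at any stage, and in the remaining pair, Hist2h2ac and Hist2h2be, the highest peaks differed.

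By fold enrichment, each of the 8 shared peaks stood higher at DP, SP4 and SP8 than at DN, and highest at SP4. By q-value all 8 were higher at DP and SP4 than at DN, but 5 were lower at SP8 than at DN, and 4 stood highest at DP and 4 at SP4. Their percentiles by fold enrichment ran from 65.2 to 91.4 at DN, with a median of 81.8. The ranges were 74.0 to 95.1 for DP (median 84.3), 85.0 to 98.1 for SP4 (89.6) and 76.1 to 97.4 for SP8 (87.5), and the difference from DN to SP4 was 5.3 to 19.8 points. The pair Hist1h2ak and Hist1h2bn, whose common promoter is printed above, had percentiles of 91.4, 94.3, 96.8 and 96.5. The pair Hist1h2ag and Hist1h2bj was the lowest at DN, with 65.2, 74.0, 85.0 and 76.1. The pair Hist1h2ac and Hist1h2bc, chosen after its values were seen, went from 81.9 at DN to 90.1 at DP, 98.1 at SP4 and 96.5 at SP8, and its width of 717, 703, 719 and 717 bp hardly differed.

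Outside these pairs, Hist1h2bh and the H3 gene Hist1h3f, whose starts are 660 bp apart, also shared 1 peak, the highest of the H2B and of the H3 class at DN. It had percentiles of 95.2, 94.6, 95.9 and 95.5, a level that varied little between stages. The H2A gene Hist2h2aa2, by contrast, had small peaks of 102, 169, 167 and 182 bp, with percentiles of 19.6, 38.5, 27.3 and 47.5. Among the Hist3 genes, Hist3h2a, an H2A gene outside the large clusters, had 67.6, 77.8, 92.6 and 91.1, with widths of 1762, 1500, 1204 and 1419 bp. Hist3h2ba, the neighbouring H2B gene, had 87.9, 92.4, 96.9 and 94.5. Both Hist3 genes were higher at SP4 and SP8 than at DN and at DP by fold enrichment, whereas by q-value Hist3h2ba had 93.8, 97.1, 97.9 and 93.7.

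H3 genes were the most spread by interquartile range. Their medians were 59.3, 65.9, 67.2 and 50.3 at DN, DP, SP4 and SP8, over 12, 11, 10 and 11 genes with a peak, and their peaks were the narrowest, with median widths of 316, 386, 331 and 277 bp. Hist1h3h (19.8, 30.9, 43.6 and 41.0) and Hist1h3i (33.0, 51.8, 63.9 and 50.3) were lowest at DN. Hist1h3b (72.5, 65.9, 53.1 and 47.2) and Hist2h3c2 (78.2, 64.0, 55.9 and 48.3) were highest at DN. Hist2h3b had 25.2, 82.7, 54.6 and 44.6, and its DP value came from a peak of 1245 bp whose summit lay 880 bp downstream of the start, past the gene end, a peak that Hist2h2bb shares. The highest peak moved between places at the pair that was highest at DN too. The summit at Hist2h3c2 lay 910, 872 and 881 bp downstream of the start at DN, DP and SP8 but at −533 bp at SP4, and that at Hist1h3b lay at −1267 bp at SP4 and within 50 bp of the start at the other stages. Such values compare different peaks. The Hist2h3c2 window had 26.1% unique words, and the part of read mapping in its values was not tested.

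All 13 H4 genes had a peak at every stage. Their median percentiles were 66.6, 68.3, 68.5 and 61.2, and their median widths 610, 665, 493 and 556 bp. Hist2h4, the highest, had 95.0, 93.4, 96.7 and 94.2, and Hist1h4k, the lowest at DN, had 21.5, 26.5, 36.0 and 14.6. Hist4h4, the single gene of its cluster, had 66.6, 78.5, 69.4 and 70.4 with widths of 1069, 964, 774 and 922 bp. Hist1h4d had 76.0, 68.3, 68.5 and 48.9 with widths of 815, 747, 574 and 705 bp, and its summit lay 6 and 7 bp downstream of the start at DN and DP but at −150 and −149 bp at SP4 and SP8, so at the SP stages it lay further upstream than the GGTCCG and TATAAA matches printed above. Over the 13 H4 genes the median summit lay 43, 35, 28 and 27 bp downstream of the start, in contrast to the upstream medians of H2A and H2B. The summits were spread on both sides of the start, with 3, 4, 5 and 6 upstream. Within 500 bp of it lay 11, 11, 10 and 11, while the summit at Hist4h4 lay 291, 623, 623 and 620 bp downstream.

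**Figure D3:**
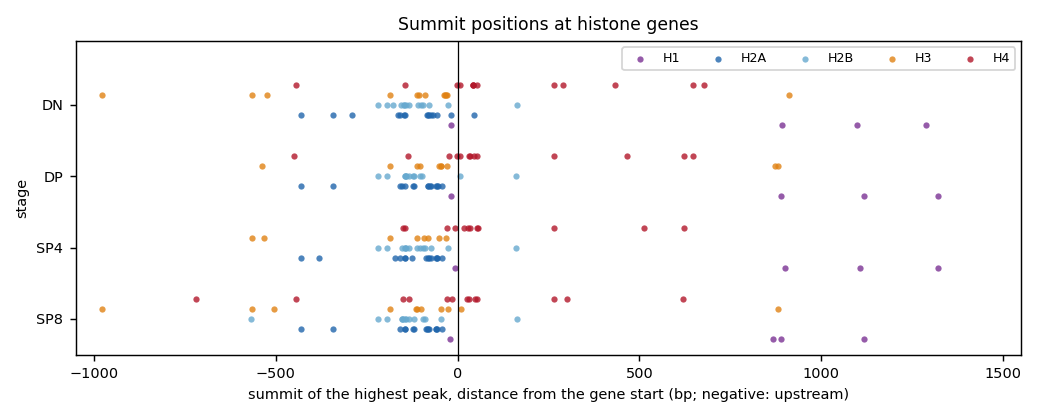
Distance of the summit of the highest peak from the gene start (bp, negative upstream) for each histone gene with a peak, coloured by class, at the 4 stages from DN (top) to SP8 (bottom), between 1000 bp upstream and 1500 bp downstream (2, 4, 5 and 2 genes lie beyond). H2A and H2B points crowd just upstream of the start, H4 points spread on both sides of it, and 3 H1 points lie far downstream.

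Over all classes, the median summit lay at −80.5, −74, −88 and −94 bp from the start, for DN, DP, SP4 and SP8. It lay within 500 bp of the start at 49 of 60, 47 of 59, 46 of 58 and 47 of 59 genes. A peak, the highest or another, covered the start itself at 56, 55, 53 and 53 genes. At DN 24 genes had 1 peak in the window, 26 had 2, and 10 had more, and at SP8 33 had 1, 21 had 2 and 5 had more.

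Peak height differed between DN and the SP stages, in a way that depended on how height was ranked. A gene counted as higher or lower when its percentile differed by at least 10 points. Between DN and SP4, 21 of 58 histone genes were higher at SP4 (36.2%, against 7.19% of all genes) and 5 lower (8.62%, against 18.6%). Between DN and SP8, 16 of 59 were higher (27.1%, against 6.15%) and 9 lower (15.3%, against 18.8%), and between DN and DP 8 were higher (13.6%, against 5.76%) and 3 lower (5.08%, against 17.1%). The share of higher genes was thus above that of all genes at each of the later stages. Between DP and SP4, 14 of 58 were higher (24.1%, against 9.60%) and 6 lower (10.3%, against 11.8%). Between DP and SP8, 4 of 58 were higher (6.90%, against 8.30%) and 10 lower (17.2%, against 13.0%). Between SP4 and SP8, 2 of 58 were higher at SP8 (3.45%, against 6.63%) and 7 lower (12.1%, against 8.69%). Of the 58 genes with a peak at all stages, 40 stood highest at SP4 (69.0%, against 22.4% of all such genes). By q-value 29 of the 58 stood highest there (all genes 23.3%), and in lists of equal length 35 of the 58 did (60.3%, against 2898 of all 14466 such genes), while the share at least 10 points higher at SP4 than at DN was 8.62% by q-value (all genes 6.31%) and 67.2% in lists of equal length (all genes 20.6%). By fold enrichment in the window of equal length, the share higher at SP4 than at DN was 37.5% (all genes 11.7%).

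For the mean of SP4 and SP8 minus DN, the median over the 58 histone genes was 5.1 points, against −0.6 over all genes with the same peaks. The mean was at least 10 points higher at 18 histone genes (all genes 5.47%) and lower at 7 (all genes 16.8%), and above 0 at 47. In the window of equal length the median was 5.2 over 56 histone genes, against 0.4 over all genes. There, 18 histone genes were at least 10 points higher (all genes 11.2%) and 6 lower (all genes 12.7%). By class, in the window to the gene end, the median difference was 12.1 for H1 (above 0 at 5 of 5), 6.7 for H2A (14 of 15), 5.2 for H2B (15 of 15), 5.1 for H3 (8 of 10) and −1.9 for H4 (5 of 13), which turned to 15.8 in lists of equal length. As neighbours share peaks, the 58 genes had 47 distinct sets of highest peaks, of which 36 were above 0, with a median of 4.7. The largest positive values were those of Hist1h1a (37.4), Hist2h3b (24.4), Hist3h2a (24.3), Hist1h3i (24.1) and Hist1h3h (22.5). The largest negative ones were those of Hist1h4n (−48.7), Hist1h4m (−32.1), Hist2h3c2 (−26.1), Hist1h3b (−22.4) and Hist1h4d (−17.3), all of them H3 and H4 genes.

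Ranked by q-value, these differences were smaller for every class but H4. The median was 0.1 over the 58 genes (all genes −0.5), and 2 were at least 10 points higher (all genes 4.92%) and 8 lower (19.7%). The class medians were 1.8 for H1, 1.4 for H2A, 0.6 for H2B and 1.5 for H3, while that of H4 was −7.6, with 12 of 13 genes below 0. When each list was cut to its best 104411 peaks by q-value, the length of the shortest, the differences were larger instead, as this removes more of the DN list than of the others. Then 40 of 58 genes were at least 10 points higher (all genes 21.9%), 4 were lower (all genes 11.2%), and the median over all genes moved to 2.4. The class medians were 20.3 for H1, 13.2 for H2A, 12.9 for H2B and 12.9 for H3, and that of H4 turned from −1.9 to 15.8, with 9 of 13 above 0. At the 9 H4 genes whose highest peaks shared a base at the 4 stages, the median by fold enrichment over the whole lists was 0.4. The direction for H4 thus turned with the ranking, while the medians of H1, H2A, H2B and H3 were above 0 and above that of all genes in all 3 rankings.

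**Figure D4:**
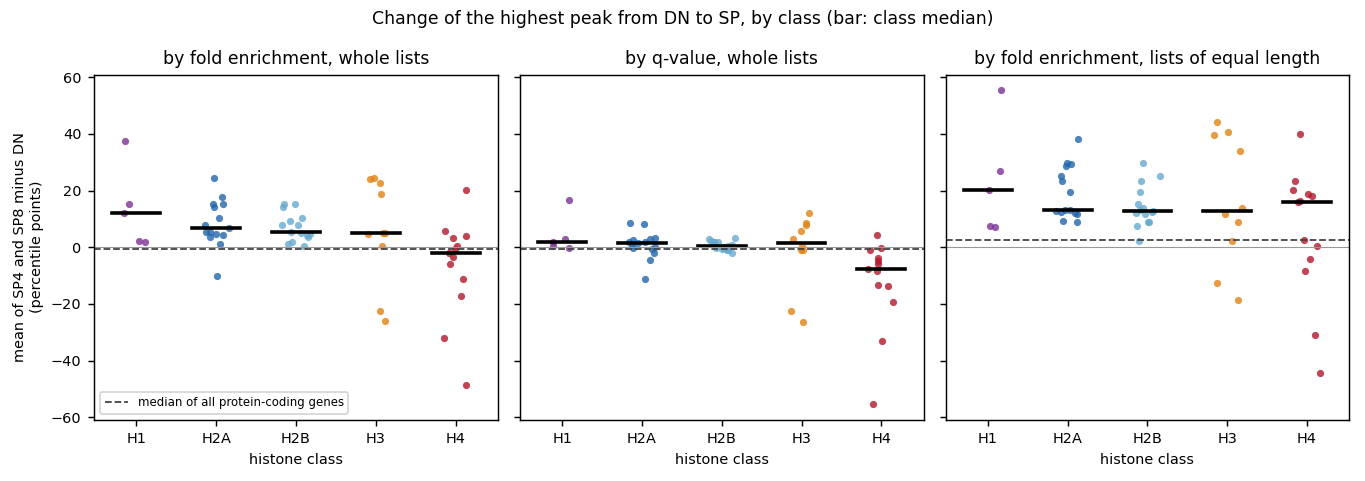
Mean percentile at SP4 and SP8 minus that at DN (percentile points) for the 58 histone genes with a peak at all stages, by class, ranked by fold enrichment in whole lists (left), by q-value (middle) and by fold enrichment in lists of equal length (right). Points are genes, black bars class medians, and the dashed line the median of all protein-coding genes (−0.6, −0.5 and 2.4), and the H4 median lies below 0 in the left and middle plots and at 15.8 in the right one.

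Peak width moved with how unique the sequence of a gene was. The share of 75-bp words of the window found once in mm10 had a median of 80.8% over the 67 genes, with 8 genes under 50% and 23 at 90% or more. At DN the median width was 485 bp at the 4 genes with a peak under 50%, 568 bp at the 36 genes from 50% to under 90%, and 805 bp at the 20 genes with a peak at 90% or more. At SP4 the same medians were 147, 523 and 721 bp, over 3, 35 and 20 genes. Width over all histone genes with a peak had a median of 600, 612, 548 and 570 bp at DN, DP, SP4 and SP8, against 516, 591, 572 and 601 bp over all genes. In the window of equal length the histone medians of 580, 609, 546 and 559 bp lay below those of all genes at each stage, 615, 723, 698 and 736 bp. The highest peak was wider at DN than at SP8 at 43 of 59 histone genes (72.9%, against 45.4% of all genes) and than at SP4 at 37 of 58 (63.8%, against 49.4%). It was at least 1.5 times as wide at DN as at SP4 at 9 of 58 genes, close to the share of all genes (14.6%). Of these 9, 5 were H4 genes, but at Hist1h4m, Hist1h4n and Hist1h4a the widths are those of different peaks. The highest peak was wider at SP4 than at DN by that factor at 1 of 58, Hist2h2aa2 (all genes 15.8%).

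The pair with the largest negative differences was also the least unique of all genes with a peak. Hist1h4n, with 5.16% unique words, had percentiles of 82.5, 73.8, 33.5 and 34.1 and widths of 463, 171, 101 and 100 bp at DN, DP, SP4 and SP8. Hist1h4m, with 5.65%, had percentiles of 91.9, 93.4, 52.1 and 67.5 and widths of 507, 380, 154 and 184 bp. Both lie in the duplicated stretch that holds the H2A and H2B pairs with no peak. At DN the summit lay 677 bp downstream of the Hist1h4n start and 647 bp downstream of the Hist1h4m start, past the end of either gene, while at SP4 and SP8 it lay 31 to 56 bp downstream, so their differences compare different peaks. The part of read mapping in these values was not tested.

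**Figure D5:**
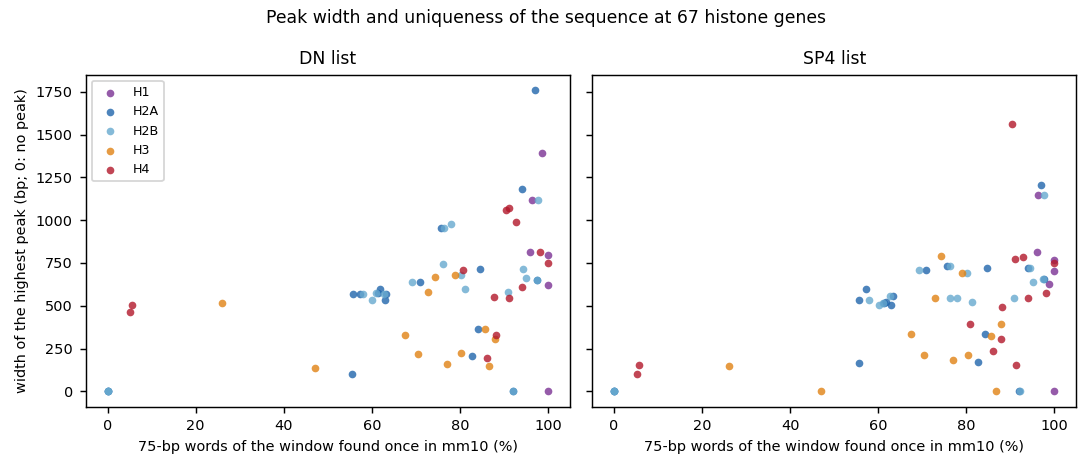
Width of the highest peak (bp, 0 where there was no peak) against the share of 75-bp words of the window found once in mm10 (%), for the 67 histone genes at DN (left) and SP4 (right), coloured by class. The 4 genes at 0% had no peak, Hist1h4n and Hist1h4m just above 5% had 463 and 507 bp at DN and 101 and 154 bp at SP4, and the genes at 90% or more had the highest median width (805 bp at DN and 721 bp at SP4, over genes with a peak), with single genes as narrow as 152 bp at SP4.

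The annotation set some of these windows. Hist1h2be is annotated over 37455 bp, and its highest peaks had percentiles of 85.9, 85.9, 89.9 and 85.8. At DN, SP4 and SP8 this was also the highest peak of Hist1h1e, with the summit at −147, −113 and −567 bp from the annotated Hist1h2be start. At DP the summit lay 23028 bp downstream of that start, within the long gene model. In a window from 1 kb upstream of the first to the last coding base of Hist1h2be, the percentiles were 66.7, 68.9, 71.3 and 73.8. Hist1h1d is annotated over 7425 bp, and its percentiles of 71.8, 78.7, 89.2 and 84.8 were the same in the coding window.

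By fold enrichment, other genes of the histone supply had smaller median differences between SP and DN than the 58 histone genes (5.1 points). By q-value the histone median was only 0.1, and no such median was computed for the other lists. Of 11 genes for variant histones, 10 had a peak at all 4 stages, with a median difference between SP and DN of 0.4 points. Of these 10, 1 was at least 10 points higher (all genes 5.47%) and 2 lower (all genes 16.8%), counts too small to set apart from those shares. The variant histone genes ran from H1fx, a linker histone variant, at −23.1 to H2afj, an H2A variant, at 12.4, while the peak of H2afy2 was called at DN alone. All 13 genes of histone gene transcription and histone mRNA processing had a peak at all stages, with a median of 1.0, from Lsm11, a subunit of the U7 particle, at −10.7 to Srrt at 10.6. Npat itself had percentiles of 93.6, 93.2, 94.3 and 94.9 and Slbp 83.5, 79.8, 87.0 and 85.5, both named after their values were seen. All 15 histone chaperone genes had a peak at all stages, with a median of 0.8, from Chaf1a, a subunit of the chromatin assembly factor, at −15.4 to Ssrp1, a subunit of FACT, at 7.5. The difference between these lists and the histone genes has no replicate error and was not tested.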

How the data were processed

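After trimming, the authors mapped reads of 75 bases to mm10 by BWA and discarded duplicates and pairs not mapped uniquely. Libraries were then limited to a common depth and pooled over the 4 mice of each stage, and MACS2 peaks were taken at an FDR of 5%. Versions are not given in the sources used here. The deposited lists give each peak's interval, a score, a summit fold enrichment (the ratio to local background, by the authors) and a −log10 q-value as the authors' caller wrote it. No peak lay outside chromosomes 1 to 19. Pooling hides differences between mice, which leaves every value without a replicate error, and a window without a peak may hold signal under the threshold. Read depth was not in the files used here.

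Windows ran from 1 kb upstream of the GENCODE M21 gene start to the gene end. The highest peak by fold enrichment was kept, with its percentile in its own list (ties at the mean rank). Genes differed at 10 points or more. The alternatives were a percentile by q-value, lists of equal length, other windows, RefSeq gene bounds, a q-value of at most 0.001, distinct peaks and uniquely mappable genes. The histone genes named by rule are those lacking a peak at a stage, the highest and lowest of each class at DN, the 5 largest differences in each direction, and the testis-type, Hist3 and Hist4 genes. Others are marked as chosen after their values were seen. The rest were named outside the rule, as neighbours or block ends, or for a peak position, sequence or annotation. The members and lists were chosen with earlier results of these data known. Overlaps were tested on simulated lists. Python 3.11.15, pandas 2.3.3, numpy 2.4.6 and scipy 1.17.1 were used. Coordinates are counted from 1. The values of some marker genes are not reported here.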

Additional observations from a re-analysis of the deposited data

How the results depend on the processing

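No paired analysis was possible because the mice were pooled into 1 list per stage and the results come from no test. Of 177 values computed under alternatives for 32 results, 136 stayed within the 95% interval of the reported value or, for counts, within 1.5 times of it, and these include all shares of genes with a peak and all stage sets. Ranking by q-value gave median percentiles of 91.1, 92.1, 93.9 and 89.4 at DN, DP, SP4 and SP8, and median SP minus DN differences of 1.8 for H1, 1.4 for H2A and 0.6 for H2B. It left 2 genes higher at DP than at DN, 5 at SP4 than at DN (8.62%, all genes 6.31%) and 2 at SP8 than at DN. Against DP, 3 were higher at SP4 and 1 at SP8. With equal numbers of peaks the DN median percentile was 68.6, and the differences were 12.9 for H2B and 15.8 for H4. Genes higher than at DN then numbered 31 at DP, 39 at SP4 (67.2%, all genes 20.6%) and 37 at SP8. Those lower than at DN numbered 0 at DP and 5 at SP8. Genes lower at SP4 than at DP numbered 10, those higher at SP8 than at DP 7, and those lower at SP8 than at SP4 4. A difference of at least 20 points left fewer genes, by construction. At DP against DN 1 was higher (1.69%, all genes 1.23%) and 1 lower (1.69%, all genes 8.86%). At SP4 against DN 8 were higher (13.8%, all genes 1.9%) and 3 lower (5.17%, all genes 9.13%). At SP8 against DN 4 were higher (6.78%, all genes 1.32%) and 6 lower (10.2%, all genes 9.33%). At SP4 against DP 3 were higher (5.17%, all genes 3.52%) and 3 lower (5.17%, all genes 4.42%). At SP8 against DP 0 were higher (all genes 2.86%) and 3 lower (5.17%, all genes 4.52%). At SP8 against SP4 1 was higher (1.72%, all genes 1.85%) and 2 lower (3.45%, all genes 2.99%). Where the highest peaks of both stages overlapped, 1 gene was lower at SP4 than at DN and 3 at SP4 than at DP, in 52 genes. No share over all genes was computed for these overlaps, nor for the other counts between stages by q-value or with equal numbers of peaks. Among members with at least 90% unique words, the median width was 805, 739.5, 721 and 706.5 bp at the 4 stages, and the H2A difference 3.6, over 3 genes. For the shifts by q-value and by uniqueness the cause was not tested. Peaks were called on pooled reads, so differences between mice cannot be seen.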
